A study of Mus musculus with 7 samples.

Results

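The ephrin, semaphorin, Slit and netrin guidance genes are families of cell-surface and secreted molecules through which neighbouring cells attract, repel or sort from one another. The set described here holds 56 genes: 14 Eph receptors, 8 ephrins, 17 semaphorins, 9 plexins and neuropilins, 5 Slit and Robo genes, and 3 genes of the netrin pathway (Ntn1, Unc5b and Unc5c). Their probes were found by symbol, as the non-control probes that the array annotation names for these genes, which gave 81 of the 55681 distinct probes and 56 of the 26957 named genes. For 35 members there was 1 probe and for 21 there were several.

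RNA came from C57BL6J mouse embryos with an Osr1-GFP knock-in, in which green fluorescent protein (GFP) marks cells that use the Osr1 locus, a gene of the early kidney-forming and lateral mesoderm. All 7 populations carried the knock-in, and 10 ng of total RNA from each was amplified and hybridised to 1 single-colour Agilent array. At embryonic day (E) 8.5 whole embryos gave GFP-positive and GFP-negative cells. At E9.5 the caudal part of the embryo gave 3 populations: GFP-positive cells with surface Itga8 and without Pdgfra, called gated cells below, the remaining GFP-positive cells, and those without GFP. At E11.5 the metanephric mesenchyme, from which nephrons and renal stroma form, gave gated cells and other GFP-positive cells. The gate was set to enrich nephron progenitors, and the comparison with the other GFP-positive cells asks how these differ from the mesenchyme around them. The number of embryos per sample and of knock-in copies per embryo is not given in the sources used here, and the GFP-negative cells of E8.5 and E9.5 are mixtures of all remaining cell types.

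With 1 array per population there were no replicates, so no test was run, and the spread between embryos or between sorts is unknown. A level below is log2 of the signal relative to the 75th percentile of all spots on that array, and a difference is the first population minus the second in log2 units, with its fold beside it. Probes spotted 10 times on each array put the standard deviation of a difference at 0.15 log2 units, an error of spots only. A gene was taken as measured if the scanner software flagged it as well above background in either population. Where the dimmer population lacked that flag, its level was raised to the lowest flagged level of its array, and the fold is written as "at least". Members were counted from 2-fold. In cell mixtures such as these, fewer expressing cells and less RNA per cell cannot be told apart.

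The share of spots flagged ranged from 56.2%, in E8.5 GFP-negative cells, to 84.1%, and no spot was saturated. The sorted genes followed their labels. Osr1 ranged from -1.80 to 1.63 where GFP was positive and lacked the flag where it was negative. For Itga8 the E9.5 gate read 2.15 and the other cells 0.20, and the E11.5 pair read 2.82 and -1.31. For Pdgfra the E9.5 pair read -0.52 and 3.44, and the E11.5 gate lacked the flag. Six2, which defines nephron progenitors, gave 1.16 and -2.63, then 4.10 and -3.58. Slide 2 carried the E9.5 gate and the E9.5 GFP-negative cells and slide 1 the other 5 arrays, so at E9.5 the other cells are compared across slides with both populations, and so are the 2 gates with each other.

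Ephrins are membrane-bound ligands read by Eph receptor tyrosine kinases on touching cells, and the binding signals into both cells, often pushing them apart and keeping boundaries sharp. Semaphorins, most of them repellents, act through plexins, and most of the secreted class 3 semaphorins also need a neuropilin. Slits are secreted repellents that bind Robo receptors. In the kidney, Slit2 and Robo2 are known for limiting the site at which the ureteric bud grows out, and loss of either gives extra buds because the Gdnf domain of the nephrogenic mesenchyme extends too far. Netrin-1 attracts or repels cells, and its Unc5 receptors carry the repulsive response.

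The probes themselves needed attention first, because 4 of the guidance genes were read through a simple repeat. The brightest probe of Epha5, Ephb3, Sema4c and Sema6d holds a run of at least 8 GT repeats, and is shown beside the probes of Epha5 and Sema6d that hold none. Each sequence is 30 of the 60 bases of the probe, 5′ to 3′, as deposited with mm9 positions of the whole probe, and capitals mark the GT repeat. They are listed at chr5:84487348-84487407 on the minus strand (Epha5), chr16:21223165-21223224 on the plus strand (Ephb3), chr1:36605998-36606057 on the minus strand (Sema4c) and chr2:124491609-124491668 on the plus strand (Sema6d). The probes without the repeat are at chr5:84494886-84494945 and chr5:84483837-84483896 (Epha5, both minus) and chr2:124490948-124491007 (Sema6d, plus). Which exon each probe covers was not annotated here.
Epha5 repeat probe: gaaatTGTGTGTGTGTGTGTGTGTGcgtgc
Ephb3 repeat probe: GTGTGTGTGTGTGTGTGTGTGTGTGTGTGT
Sema4c repeat probe: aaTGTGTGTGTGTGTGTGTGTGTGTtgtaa
Sema6d repeat probe: agaggggcgaGTGTGTGTGTGTGTGTGTGT
Epha5 second probe: gtaccatttattacctataaatatcatagt
Epha5 other probe: gttcccatctgcatttgtttgtgctttcag
Sema6d second probe: taaagaggacaccatccttaaaacctgatg

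These 4 repeat probes were bright and nearly flat. Over the 7 arrays the Epha5 repeat probe ran from 8.62 to 8.90, that of Ephb3 from 8.55 to 8.86, that of Sema4c from 8.87 to 9.17 and that of Sema6d from 7.42 to 7.70. Among all 55681 probes, 71 hold 8 GT repeats, and all 71 had a mean level above 5, with a median of 8.81 and a median range over the arrays of 0.34 log2 units. Of the 55576 probes with neither GT nor CA repeats, 3.12% had a mean above 5, and their median range was 1.58. The probes without the repeat gave another picture. The Epha5 probe at chr5:84483837-84483896 read 0.28 and 0.46 at E8.5 (GFP-positive, GFP-negative), then -3.11, -3.28 and -0.60 at E9.5 (gated, other, GFP-negative). At E11.5 it was at -2.27 in the other cells and not well above background in the gate (-5.38). Epha5, a receptor best known from the nervous system, was by this probe 5.69-fold lower in the E9.5 gate than in GFP-negative cells and at least 7.22-fold lower in the E11.5 gate than in the other cells, where the repeat probe differed by 0.03. The second Epha5 probe did not show the E9.5 difference, with -3.30 in the gate and -3.45 in GFP-negative cells, and was not well above background in either E11.5 population. For Ephb3 and Sema4c the repeat probe was the sole one, and no level of these 2 genes is drawn from it. Whether the repeat sets these signals was not tested.

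**Figure D1:**
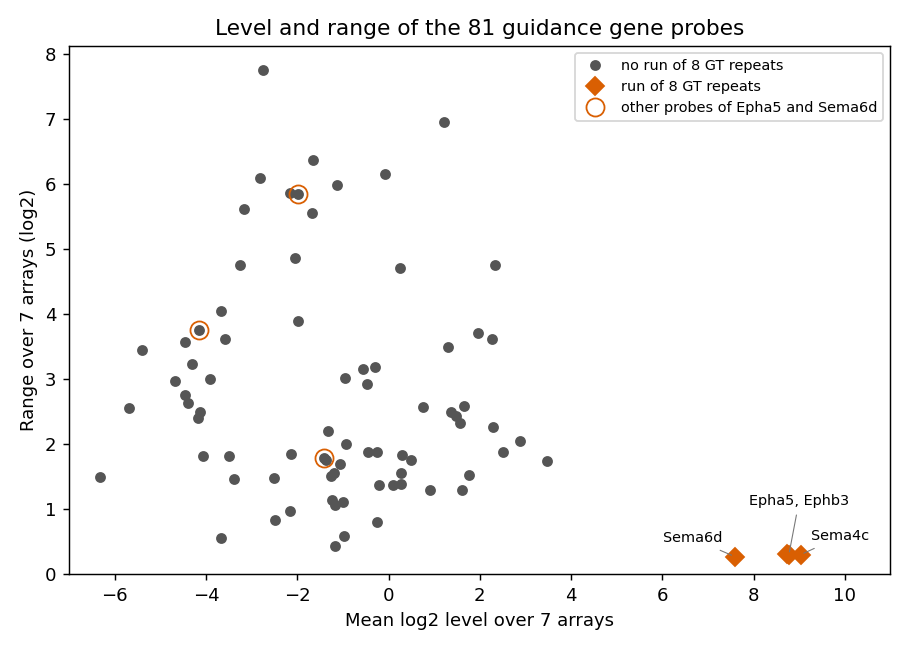
Each point is 1 of the 81 guidance gene probes, with its mean log2 level over the 7 arrays on the horizontal axis and its range over the 7 arrays (log2) on the vertical axis. The 4 probes with a run of 8 GT repeats (orange diamonds) lie apart at the lower right, above a mean level of 7 and with ranges of 0.27 to 0.31, while the ringed probes of Epha5 and Sema6d without the repeat are dimmer and vary more.

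By the used probe, 44 of the 56 guidance genes were well above background on all 7 arrays, among them the 4 read through the GT repeat. By the same probes Epha8 and Sema7a were detected on none, Sema3e on 1 (the E11.5 gate), and Sema4a and Slit1 on 3 each. Epha3 and Plxna4 were detected on 4 arrays, Epha6 and Plxnc1 on 5 (with a second probe counted, Plxna4 on 5 and Plxnc1 on 6), and Epha10, Sema3d and Robo2 on 6. The array of E8.5 GFP-negative cells had the fewest members above background, 44, against 50 to 53 on the others. It was also the lowest for all genes, with 60.4% well above background against 72.9% to 85.4%.

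**Figure D2:**
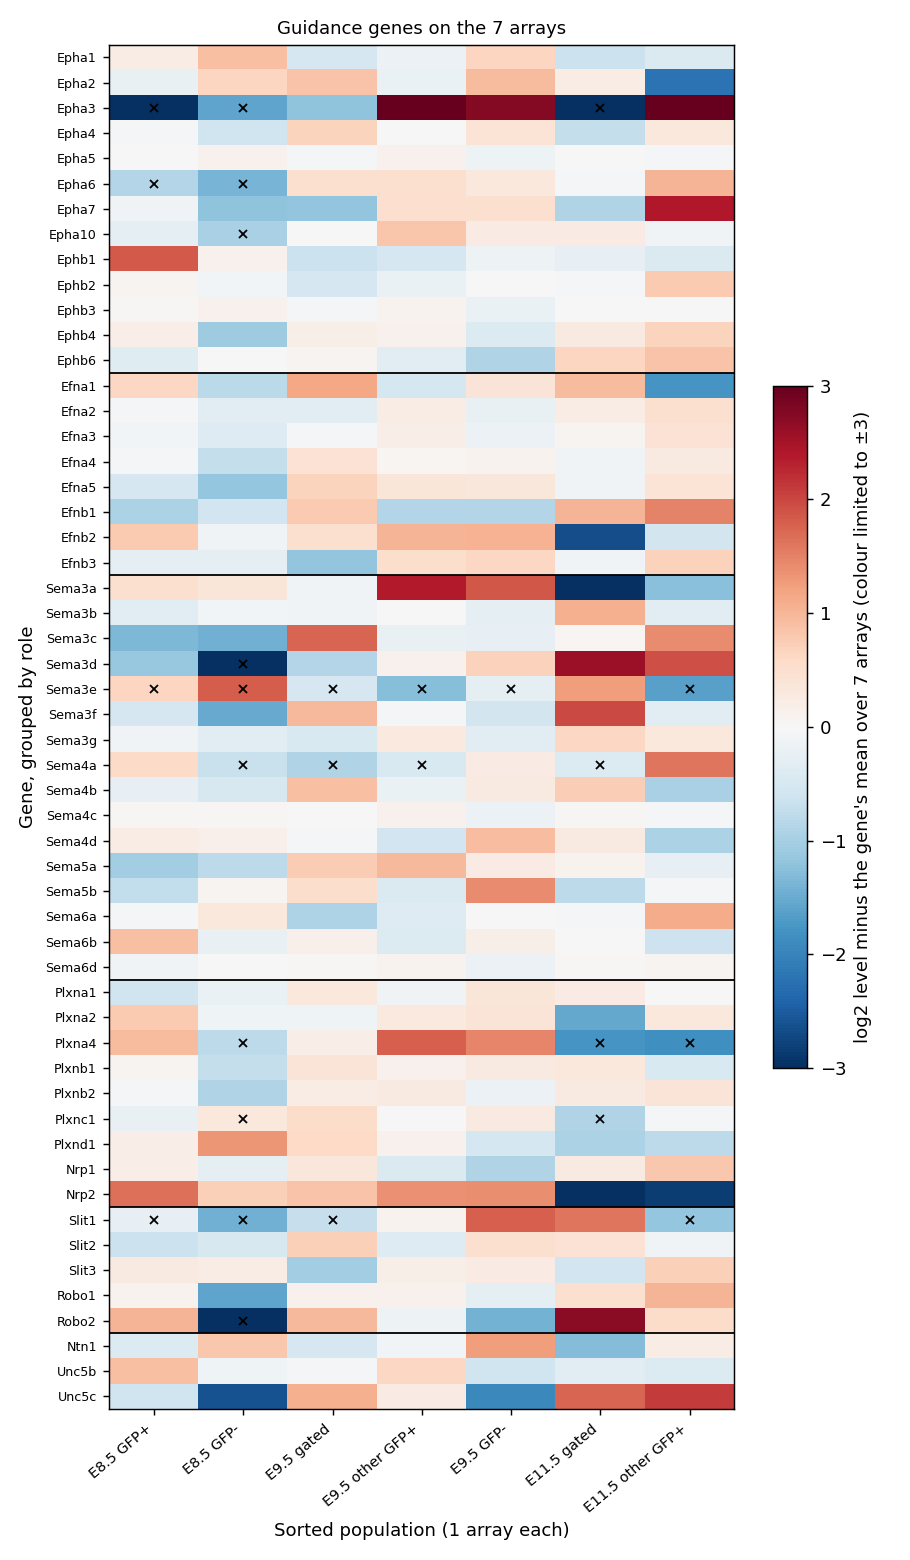
Rows are guidance genes grouped by role and columns are the 7 populations (1 array each), and colour is the log2 level minus the mean of that gene over the 7 arrays, limited to 3 in either direction. A cross marks a gene not well above background on that array, and Epha8 and Sema7a, detected on no array, are left out. Epha3, Robo2, Sema3a, Sema3d and Nrp2 have the widest ranges, and the 4 genes with repeat probes are pale throughout.

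At E9.5 the gated cells had more Sema3c, Efna1, Efnb1, Robo2, Slit2, Sema4b, Epha2 and Sema3f than the other GFP-positive cells, and less Epha3, Sema3a, Efnb3, Epha7, Plxna4, Slit3 and Sema3d. These 8 higher and 7 lower members are 15.4% and 13.5% of the 52 measured. Over all 23478 genes measured the shares were 5.14% higher and 9.37% lower. The members were chosen with earlier results of these data known, so their shares are no test of the set. On the higher side Robo2, Sema4b, Slit2, Epha2 and Sema3f were close to the 2-fold line (1.05 to 1.14). So was Sema3d on the lower side (-1.01). Past 4-fold were 0 members higher and 2 lower (Epha3 and Sema3a), against 0.848% and 1.18% of all genes. The all-gene split of 1206 higher and 2201 lower genes became 1939 and 1819 under quantile normalization. The median member difference was -0.10 and that of all genes -0.15.

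By E11.5 more members were past 2-fold between the gate and its neighbours, and so were more of all genes. Efna1, Epha2, Slit1, Sema3f, Robo2, Sema4b, Sema3b and Sema4d were higher in the gate. Lower there were Epha3, Epha7, Sema3a, Efnb2, Sema4a, Plxna2, Ntn1, Sema3c, Slit3, Sema6a, Epha6 and Epha4. That is 8 higher (15.1%) and 12 lower (22.6%) of 53 measured, against 10.5% and 9.4% of all 21589 genes. Past 4-fold were 5 members on each side, against 2.16% higher and 3.23% lower among all genes. All genes split into 2260 higher and 2029 lower, or 1475 and 2711 without scaling between arrays. The member median was -0.21 and the median of all genes 0.15, which moved to -0.06 without scaling.

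The 2 gate comparisons use different arrays, and 5 members were higher in both: Efna1, Epha2, Robo2, Sema3f and Sema4b, which are 62.5% of the 8 at either stage. Lower in both were Epha3, Epha7, Sema3a and Slit3, or 57.1% of the 7 at E9.5 and 33.3% of the 12 at E11.5. Among all genes, 287 were higher in both (23.8% of those at E9.5 and 12.7% at E11.5) and 403 lower in both (18.3% and 19.9%). Sema3c was the 1 member past 2-fold in opposite directions, and none was lower at E9.5 and higher at E11.5. Renal stroma and mesenchyme markers moved with these differences. Of 9 such markers, 7 were at least 2-fold lower in the gate at E9.5 and 9 at E11.5. Pdgfra is counted among them, and its side was set by the sort itself. Their summed level (log2) was 4.61 in the gate and 6.06 beside it at E9.5, then 3.97 and 7.55. Pdgfra, Twist1 and Tbx18 were not well above background in the E11.5 gate. Endoderm markers were also lower in the E9.5 gate (6 of 8). Of 10 endothelial markers, 4 were higher there and 1, Erg, was lower (-1.40 against 1.20). Summed endothelial levels were 3.11 in that gate and 3.01 beside it. In the E11.5 gate, 3 of 5 endoderm markers and 1 of 5 neural crest markers were higher, with summed neural crest levels of 5.60 and, beside it, 2.33. The part of these cell types in the member differences was not tested.

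**Figure D3:**
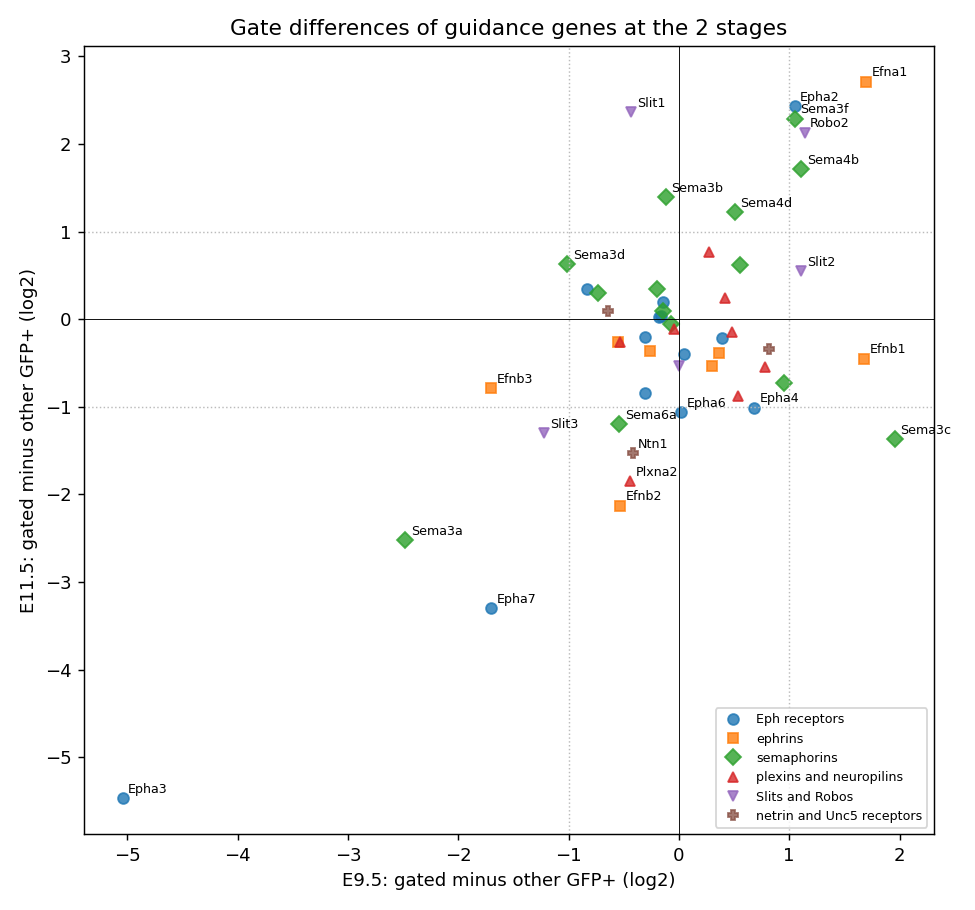
Each point is a guidance gene measured at both stages, with the gated minus other GFP-positive difference (log2) at E9.5 on the horizontal axis and at E11.5 on the vertical axis, and the symbol gives its role. Dotted lines mark 2-fold, bounds are drawn at their value, and names are given past 2-fold at either stage. Efna1, Epha2, Robo2, Sema3f and Sema4b lie at the upper right, Epha3, Epha7, Sema3a and Slit3 at the lower left, and Sema3c at the lower right.

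Among the Eph receptors, Epha3 gave the deepest contrast of the whole set. It was at 1.11 in E9.5 other GFP-positive cells, 0.02 in E9.5 GFP-negative cells and 0.35 in E11.5 other cells, but at -3.94 in the E9.5 gate. On the arrays of E8.5 GFP-positive cells (-6.64), E8.5 GFP-negative cells (-4.33) and the E11.5 gate (-5.78) it was not well above background. High and low populations were thus far apart, with a gap of almost 4 log2 units and both gates on the low side. The gate was 33.0-fold lower than the other cells at E9.5 (-5.04) and at least 44.3-fold lower at E11.5 (-5.47). A receptor for ephrin-A ligands, Epha3 was read by 1 probe, at chr16:63545155-63545214 on the minus strand.

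Epha7, another ephrin-A receptor, followed the same side through 3 probes. The used probe read 2.17 and 1.06 at E8.5 (GFP-positive, GFP-negative), 1.09, 2.79 and 2.76 in E9.5 gated, other and GFP-negative cells, and 1.38 and 4.68 in E11.5 gated and other cells. Its highest level was in the E11.5 other cells and its lowest were in the E8.5 GFP-negative cells and the E9.5 gate. Against the other GFP-positive cells the gate was 3.24-fold lower at E9.5 and 9.87-fold lower at E11.5. The used probe is listed for transcript variant 1 and the others for variant 2, and 30 bases of each are shown to tell them apart, at chr4:28891069-28891128, chr4:28873570-28873629 and chr4:28869764-28869823, all plus.
Epha7 used probe, variant 1: tggccatcaaaagaagatcatgagcagcat
Epha7 second probe, variant 2: cagttaggctgcagtgtaaatatataaaga
Epha7 last probe, variant 2: tgtcatcataattgctgtagtggctgtagc
The second probe gave -1.41 at E9.5 and -3.95 at E11.5, and the last -0.86 and -2.74. All 3 probes were lower in the gate at both stages, though the last did not reach 2-fold at E9.5.

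Epha2, a receptor whose chief partner is ephrin-A1, went the other way. Its levels were -0.79 and 0.07 at E8.5 (GFP-positive, GFP-negative), 0.28, -0.78 and 0.37 at E9.5 (gated, other, GFP-negative), and -0.36 and -2.79 at E11.5 (gated, other). The E11.5 other cells stood lowest by about 2 log2 units. The gate was 2.08-fold above the other cells at E9.5 and 5.40-fold at E11.5, and the widening lay in the other cells, which were 4.03-fold lower at E11.5 than at E9.5, while the gate differed by -0.63.

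Efna1, which encodes ephrin-A1 itself, had a like profile across the gate. It read 0.13 and -1.30 at E8.5 (GFP-positive, GFP-negative), 0.69, -1.01 and -0.10 at E9.5 (gated, other, GFP-negative), and 0.47 and -2.24 at E11.5 (gated, other). Each gate was above the other GFP-positive cells of its stage, by 3.25-fold at E9.5 and 6.52-fold at E11.5. A 2.70-fold higher level in GFP-positive cells was seen at E8.5. As with Epha2, the gates of the 2 stages differed little (-0.22), and the other cells were 2.34-fold lower at E11.5.

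The ephrin-B genes did not follow one pattern. Efnb1, a ligand of EphB receptors, was at 2.27 in the E9.5 gate and 0.60 in both other E9.5 populations, a 3.19-fold difference, and at E11.5 it was at 2.51 in the gate and 2.96 in the other cells. The gate thus stood apart at E9.5, and the other cells were 5.15-fold higher at E11.5 than at E9.5. Efnb2, a marker of arterial endothelium and a ligand of Ephb4, was between 1.86 and 3.00 on the arrays of E8.5 and E9.5, at 1.42 in E11.5 other cells and at -0.71 in the E11.5 gate. It was 8.90-fold lower in the E11.5 than in the E9.5 gate, and 4.38-fold lower in the E11.5 gate than beside it. A second, dimmer Efnb2 probe gave -1.54 between the gates and 0.31 between the E11.5 populations, so the latter difference was seen with 1 of 2 probes. Efnb3 was 3.26-fold lower in the E9.5 gate than in other GFP-positive cells, with levels of -1.44 and 0.27. The remaining ephrins, Efna2 to Efna5, stayed within 2-fold in all 7 comparisons by their used probes. A second, dimmer Efna3 probe was at -3.07 in E11.5 other cells and not well above background in the E11.5 gate (-5.25).

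Among the other Eph receptors, Ephb1 was highest in E8.5 GFP-positive cells (3.21) and lay between 0.72 and 1.49 elsewhere. Ephb4, the partner of Efnb2, ran from 2.41 in E8.5 GFP-negative cells to 4.15 in E11.5 other cells. Epha4 was 2.02-fold and Epha6 2.08-fold lower in the E11.5 gate than in the other cells, both close to the 2-fold line.

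Because Efna1 and Epha2 were higher and Epha3 and Epha7 lower on the same side of the gate at both stages, the 250 bases before their annotated starts are printed, from RefSeq on GRCm38.p6. Each runs 5′ to 3′ along the gene, at chr3:89279646-89279895 (Efna1, minus, the downstream of 2 listed starts), chr4:141300971-141301220 (Epha2, plus), chr16:63864176-63864425 (Epha3, minus) and chr4:28812881-28813130 (Epha7, plus, the upstream of 2 listed starts). Capitals mark the GC box GGGCGG, sought on both strands, so that it can also read CCGCCC.
Efna1 promoter: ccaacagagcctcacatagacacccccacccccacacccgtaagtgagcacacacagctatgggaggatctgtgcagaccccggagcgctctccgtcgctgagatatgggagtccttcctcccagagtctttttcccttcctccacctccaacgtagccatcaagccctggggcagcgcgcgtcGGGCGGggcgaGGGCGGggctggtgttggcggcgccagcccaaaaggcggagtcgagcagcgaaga
Epha2 promoter: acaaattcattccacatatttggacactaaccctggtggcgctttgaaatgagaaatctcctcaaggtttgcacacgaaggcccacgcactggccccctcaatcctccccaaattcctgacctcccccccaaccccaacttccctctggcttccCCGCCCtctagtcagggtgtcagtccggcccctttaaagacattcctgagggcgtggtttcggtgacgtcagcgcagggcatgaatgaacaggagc
Epha3 promoter: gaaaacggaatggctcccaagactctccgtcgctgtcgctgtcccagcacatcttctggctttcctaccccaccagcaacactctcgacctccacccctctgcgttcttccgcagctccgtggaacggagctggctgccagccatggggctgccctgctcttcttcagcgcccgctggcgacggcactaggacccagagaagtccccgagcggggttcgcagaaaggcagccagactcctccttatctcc
Epha7 promoter: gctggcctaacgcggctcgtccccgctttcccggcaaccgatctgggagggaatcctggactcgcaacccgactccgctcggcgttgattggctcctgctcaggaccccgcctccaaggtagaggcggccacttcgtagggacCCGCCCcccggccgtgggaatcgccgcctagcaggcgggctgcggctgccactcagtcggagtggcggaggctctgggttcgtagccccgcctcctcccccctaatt
The Efna1 sequence held 2 GC boxes, those of Epha2 and Epha7 held 1 each, and these letters were not found in that of Epha3, which still holds 16 CpG dinucleotides. Of the 56 members, 48 matched a promoter entry, and 37 of these (77.1%) held a GC box at some start, against 35.4% of all 27025 genes with an entry. The median CpG count, taking for each gene the listed start with the most, was 17.5 in the members and 6.0 in all genes. The TATA box TATAAA was found in 2 of 48 (4.17%), Efnb2 and Slit2, against 14.3% of all genes. For CCAAT the shares were 31.2% and 37.5%, and for the E-boxes CAGCTG and CAGATG they were 14.6% against 14.7% and 10.4% against 16.3%. Each motif was sought on both strands, and a match is a description of the letters only.

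Sema3a led the semaphorins. This secreted repellent of axons and endothelial cells was at 0.41 and 0.29 at E8.5 (GFP-positive, GFP-negative), at -0.17, 2.31 and 1.79 at E9.5 (gated, other, GFP-negative), and at -3.84 and -1.32 at E11.5 (gated, other). It was lowest in the E11.5 gate and highest in the E9.5 other cells. The gate was 5.59-fold below the other cells at E9.5 and 5.73-fold below them at E11.5. Both populations were also lower at the later stage, the gate by 12.7-fold and the other cells by 12.4-fold. A second Sema3a probe gave -3.40 at E9.5 and, as a bound, -1.63 at E11.5, with -1.48 as a bound between the gates and -3.24 between the other cells of the 2 stages.

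Sema3f, a repellent that acts through Nrp2, was on the opposite side. Its levels were 0.80 and -0.21 at E8.5 (GFP-positive, GFP-negative), 2.29, 1.24 and 0.75 at E9.5 (gated, other, GFP-negative), and 3.28 and 0.99 at E11.5 (gated, other). The 2 gates held its highest levels. The gate exceeded the other GFP-positive cells by 2.07-fold at E9.5 and 4.88-fold at E11.5, and the E8.5 sort gave a 2.01-fold higher level in GFP-positive cells. Sema4b, a transmembrane semaphorin, was higher in the gate by 2.16-fold and 3.28-fold at the 2 stages, with levels of 3.41 against 2.30 and 3.24 against 1.53.

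Sema3c, whose product binds neuropilins and Plxnd1 and is known from the cardiac outflow tract, changed sides. It was at -1.63 and -1.73 at E8.5 (GFP-positive, GFP-negative), at 1.46, -0.50 and -0.54 at E9.5 (gated, other, GFP-negative), and at -0.22 and 1.14 at E11.5 (gated, other). At E9.5 the gate was 3.89-fold above the other GFP-positive cells, while at E11.5 it was 2.58-fold below them. A second probe gave 0.68 and, as a bound, -0.97, the same signs but within 2-fold.

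Sema3d, another class 3 semaphorin, separated the stages. It was at -3.28 in E8.5 GFP-positive cells and not well above background in E8.5 GFP-negative cells (-5.44). At E9.5 it read -3.04, -2.03 and -1.47 in gated, other and GFP-negative cells, and at E11.5 it read 0.42 and -0.21 in gated and other cells. Both E11.5 populations lay above all 5 earlier ones. The gate was 11-fold and the other cells 3.53-fold higher at E11.5 than at E9.5, and within a stage the gate was 2.01-fold lower at E9.5 and 0.63 log2 units higher at E11.5.

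Other semaphorins differed in a few comparisons each. Sema3b was 2.63-fold higher in the E11.5 gate than beside it, with levels of 1.36 and -0.04. Sema4d was 2.32-fold higher in that comparison, and at E9.5 it was highest in GFP-negative cells (0.49). Sema6a was highest in E11.5 other cells (4.01), 2.29-fold above the gate, and its second probe gave -1.95. Sema4a was low throughout and was detected on 3 arrays, at -2.52 in E11.5 other cells, at least 4.05-fold above the gate. Sema5b was 3.59-fold lower in other GFP-positive than in GFP-negative cells at E9.5 (-1.75 against 0.09). Of its dimmer probes, one gave -3.68 against -1.68 and another, within 2-fold, -2.25 against -1.81.

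The probes of Sema3g contradicted each other. The sequences shown are 30 bases of each, at chr14:32042510-32042569 and chr14:32043435-32043494, both plus.
Sema3g used probe: ttgggattgaatctagggtctcatgcatgc
Sema3g second probe: attgttgttgatatttttattgtcatgttg
The used probe was 2.09-fold higher in the E11.5 than in the E9.5 gate (-0.55 against -1.61), whereas the second was 14.9-fold lower (-4.17 against -0.28). At E9.5 the second probe was 3.88-fold higher in gated than in other cells, where the used probe gave levels of -1.61 and -0.88. No direction is given for Sema3g.

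Among plexins and neuropilins, the co-receptors and receptors of semaphorins, Nrp2 marked the step from E9.5 to E11.5. Its used probe read 3.97 and 3.04 at E8.5 (GFP-positive, GFP-negative), 3.18, 3.71 and 3.72 at E9.5 (gated, other, GFP-negative), and -0.79 and -0.53 at E11.5 (gated, other). The 5 earlier populations lay within 1 log2 unit of each other and more than 3 above both later ones. Nrp2 was 15.7-fold lower in the gate and 18.9-fold lower in the other cells at the later stage. A second probe, listed for transcript variant 5 where the used probe is listed for variant 1, separated the E11.5 populations. Their 30-base stretches, at chr1:62865129-62865188 and chr1:62843298-62843357 on the plus strand, show 2 separate sites.
Nrp2 used probe, variant 1: tgagccagatcacgggaactcgagagcttt
Nrp2 second probe, variant 5: ggtttctgttggctgtcattgtcatctcca
The variant 5 probe was between 2.26 and 2.88 on the E8.5 and E9.5 arrays, at -0.22 in E11.5 other cells and at -4.07 in the E11.5 gate. By this probe the E11.5 gate was 14.4-fold below the other cells and 90.5-fold below the E9.5 gate, while by the used probe the E11.5 populations differed by -0.26. Both probes were lower at E11.5 than at E9.5 in both pairs of populations.

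Nrp1, the main Sema3a co-receptor, was 2.34-fold higher in the E9.5 gate than in GFP-negative cells and 2.38-fold higher in the other cells of E11.5 than in those of E9.5, with levels from -1.96 to -0.26. Plxnd1, an endothelial semaphorin receptor, was highest in E8.5 GFP-negative cells (3.62) and was 2.92-fold lower in the E11.5 than in the E9.5 gate (1.35 against 2.89), though a second probe gave -0.10. Plxna2 was 3.61-fold lower in the E11.5 gate than in the other cells (0.02 against 1.88). Plxna4 was detected at E9.5 (-3.38, -1.78 and -2.12 in gated, other and GFP-negative cells) and in E8.5 GFP-positive cells (-2.63) by its used probe, which was not well above background at E11.5. A second probe was so in E11.5 other cells (-4.52). Plxna1, Plxnb1 and Plxnb2 stayed within 2-fold in all 7 comparisons. Between the gates, 5 of the 9 plexins and neuropilins were at least 2-fold lower at E11.5 and none was higher, with a median of -1.40, where 11.9% of all genes were lower. For Plxnd1 and Plxnc1 the second probes (-0.10 and, as a bound, 0.34) did not show it.

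Robo2, the receptor that restrains ureteric budding, was higher in the gate at both stages. The used probe read -0.65 in E8.5 GFP-positive cells and was not well above background in E8.5 GFP-negative cells (-5.34). At E9.5 this probe was at -0.68, -1.82 and -3.08 in gated, other and GFP-negative cells, and at E11.5 at 1.04 and -1.10 in gated and other cells. By this probe the level was highest in the E11.5 gate, and the GFP-negative cells were the lowest at E8.5 and E9.5. The gate was 2.21-fold above the other cells at E9.5 and 4.39-fold at E11.5, and 3.28-fold higher at E11.5 than at E9.5. The other 2 probes gave 1.97 and 2.06 at E11.5, but -0.03 and 0.92 at E9.5, so 2-fold was reached at E9.5 by 1 of 3 probes. Against E9.5 GFP-negative cells the gate gave 2.41 by the used probe and -0.29 and 1.08 by the others. At E8.5 the used probe was at least 7.01-fold higher in GFP-positive cells.

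Of the Slit ligands, Slit2 was at -0.86 and -0.70 at E8.5 (GFP-positive, GFP-negative), at 0.51, -0.60 and 0.26 at E9.5 (gated, other, GFP-negative), and at 0.23 and -0.32 at E11.5 (gated, other). The gate was 2.16-fold above the other cells at E9.5, with GFP-negative cells between them, and 0.55 log2 units above them at E11.5. Slit3 ran the other way, 2.33-fold lower in the gate at E9.5 (-2.40 against -1.18) and 2.46-fold lower at E11.5 (-1.94 against -0.64). Slit1 was not well above background at E8.5, in the E9.5 gate or in the E11.5 other cells, and was at -2.68 in the E11.5 gate, at least 5.13-fold above the other cells. In E9.5 GFP-negative cells Slit1 was at -2.50, 3.21-fold above the other GFP-positive cells. Robo1, the second Slit receptor, was 3.25-fold higher in GFP-positive than in GFP-negative cells at E8.5 (1.77 against 0.08) and lay between 1.38 and 2.67 afterwards.

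In the netrin pathway, the receptor Unc5c and the ligand Ntn1 stood on opposite sides of the GFP sort at E9.5 by their used probes. Unc5c was at -0.33 and -2.36 at E8.5 (GFP-positive, GFP-negative), at 1.33, 0.51 and -1.68 at E9.5 (gated, other, GFP-negative), and at 2.01 and 2.35 at E11.5 (gated, other). The 2 GFP-negative populations were its lowest. It was 4.09-fold higher in GFP-positive cells at E8.5, and at E9.5 the gate and the other cells were 8.06-fold and 4.57-fold above the GFP-negative cells. A second probe gave 2.90 and 2.82 at E9.5 and, as a bound, 1.83 at E8.5. Ntn1 was at 0.35 and 1.56 at E8.5 (GFP-positive, GFP-negative), at 0.25, 0.67 and 2.01 at E9.5 (gated, other, GFP-negative), and at -0.55 and 0.97 at E11.5 (gated, other). By this probe Ntn1 was highest in the GFP-negative cells of E9.5, 3.39-fold above the gate and 2.54-fold above the other cells. A second, dimmer Ntn1 probe did not show this. It was at -3.88 in the E9.5 other cells and not well above background in GFP-negative cells (-4.50) or the gate (-4.82). At E8.5 the used Ntn1 probe was 2.32-fold lower in GFP-positive cells, but the mean of both its probes had the opposite sign (0.24), so no direction is given there. Unc5b was highest in E8.5 GFP-positive cells (2.68), 2.06-fold above the GFP-negative cells.

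**Figure D4:**
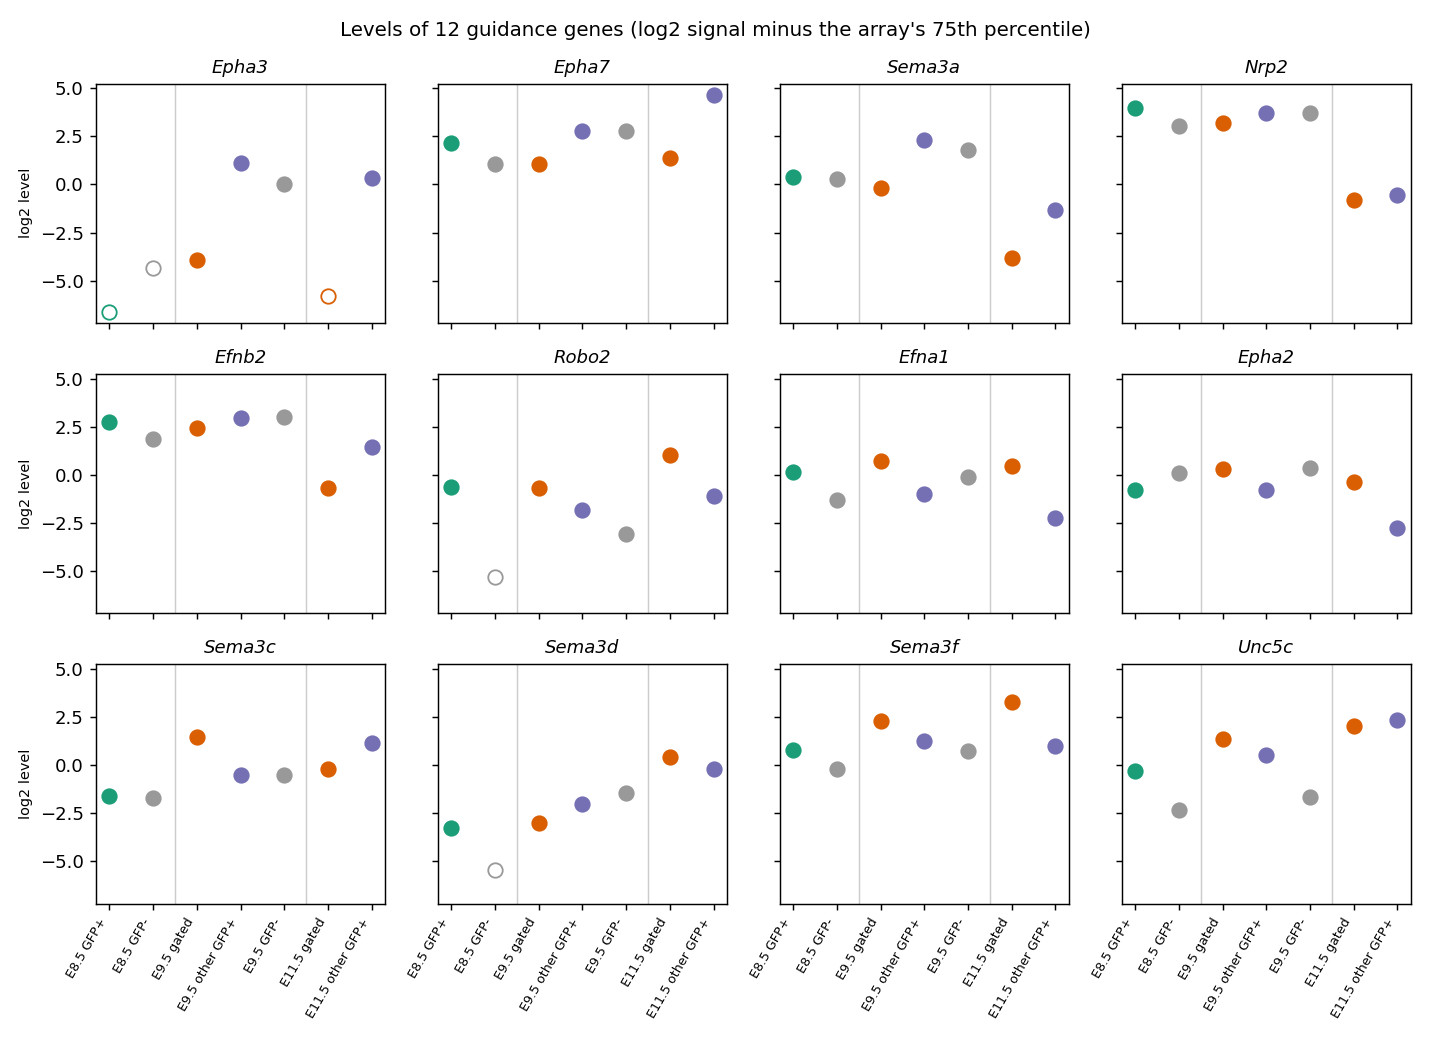
The 12 panels show the level (log2 signal minus the 75th percentile of the array) of 12 guidance genes in the 7 populations, 1 array each, with open circles for levels not well above background and vertical lines separating the stages. Orange points are the gated cells, violet the other GFP-positive cells, green the E8.5 GFP-positive cells and grey the GFP-negative cells. Epha3, Epha7 and Sema3a are lower and Efna1, Epha2, Robo2 and Sema3f higher in the gate than in the other cells at both stages, Nrp2 is lower in both E11.5 populations, and Unc5c is lowest in the GFP-negative cells.

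Across the whole set, the E8.5 comparison leaned to the GFP-positive side. Higher there by the used probes were Robo2, Unc5c, Ephb1, Robo1, Efna1, Ephb4, Sema6b, Epha7, Unc5b and Sema3f, and lower were Ntn1 and Plxnd1. For Epha7 neither variant 2 probe reached 2-fold, the last with -1.79 in GFP-positive and -1.72 in GFP-negative cells. For Ntn1 no direction is given, as said above. The used probes count 10 higher and 2 lower (4.0%) of 50 measured, against 7.03% and 6.09% of all 19996 genes. Past 4-fold were 2 higher and 0 lower, against 0.89% and 2.44% of all genes. All genes split into 1406 higher and 1217 lower, or 1823 and 1041 without scaling. The member median was 0.22 and that of all genes 0.05, or 0.18 without scaling. All 9 red blood cell markers were at least 2-fold lower in the GFP-positive cells, with a median of -8.16, and 5 of 9 stromal and mesenchymal markers were higher. Their part in the member differences was not tested.

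The E9.5 gate differed from GFP-negative cells by 7 higher members (13.2%) and 10 lower ones (18.9%) of 53, against 5.69% and 6.41% of all 21369 genes. Past 4-fold were 3 higher and 2 lower, against 1.19% and 1.87% of all genes. The split of all genes was 1215 and 1370, or 833 and 1876 without scaling, and their median moved from 0.01 to -0.18. Higher by the used probes were Unc5c, Robo2, Sema3c, Efnb1, Sema3f, Nrp1 and Plxnd1, while Epha3, Slit1, Sema3a, Efnb3, Ntn1, Epha7, Sema3d, Slit3, Plxna4 and Epha1 were lower. Second probes of Sema3c (-2.67 in the gate, -2.64 in GFP-negative cells) and Plxnd1 (-0.85 and -0.96) did not show it. The variant 2 probes of Epha7 were lower in the gate but within 2-fold. Lower in the gate were 9 of 9 red blood cell markers (median -6.07), 6 of 8 somite and 5 of 7 neural crest markers. So were 7 of 10 neural tube markers (median -1.51), with summed levels of 6.58 against 7.20. Within these sums Elavl4 alone read 6.50 in the gate and 6.20 in GFP-negative cells. Sox2 was not well above background in either GFP-positive population. Endothelial markers were higher in 6 of 10, with summed levels of 3.11 against 2.31. What they contribute was not tested.

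Of the 7 comparisons, that of other GFP-positive with GFP-negative cells at E9.5 had the fewest members past 2-fold, with 4 higher members (7.55%) and 5 lower (9.43%) of 53, against 8.55% and 5.18% of all 23600 genes, so the higher share was at the background. Past 4-fold were 1 higher (Unc5c) and 0 lower, against 0.792% and 1.26% of all genes. Without scaling these became 3 and 8 members, and all genes went from 2018 higher and 1222 lower to 1250 and 1749. Red blood cell markers were lower in the other GFP-positive cells in 9 of 9 cases (median -6.57), neural tube markers in 7 of 10, neural crest markers in 5 of 7 and somite markers in 6 of 8, while 5 of 9 stromal markers were higher, and their part was not tested. The 3 comparisons within E9.5 share arrays and are not independent of each other.

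From E9.5 to E11.5 the gate had 6 members higher (11.3%) and 11 lower (20.8%) of 53, against 6.06% and 11.9% of all 21449 genes. Past 4-fold were 1 higher and 3 lower, against 1.27% and 3.0% of all genes. The all-gene split was 1300 and 2551, or 1777 and 2083 under quantile normalization. Sema3d, Slit1, Robo2, Sema3b, Efnb3 and Sema3g were higher at E11.5 by their used probes. For Sema3g no direction is given, as said above, because its second probe was lower at E11.5 (-4.17 against -0.28). Nrp2, Sema3a, Efnb2, Plxna4, Sema3c, Plxnd1, Plxnc1, Plxna2, Epha4, Sema5b and Epha3 were lower, although for Sema5b another probe lay on the opposite side (1.02). In the other GFP-positive cells 9 members were higher (17%) and 8 lower (15.1%) of 53, against 6.36% and 22.1% of all 23574 genes, which split 1499 to 5211, or 2596 to 2310 under quantile normalization, where the members split 12 to 7. Past 4-fold were 2 members higher and 4 lower, against 1.6% and 3.43% of all genes. Higher by the used probes were Efnb1, Sema4a, Epha7, Unc5c, Sema3d, Sema3c, Sema6a, Nrp1 and Ephb6, and lower were Nrp2, Sema3a, Plxna4, Epha2, Efnb2, Efna1, Sema5a and Unc5b. Second probes of Sema3c (-3.97 at E11.5, -3.35 at E9.5) and Ephb6 (-1.11 and -1.05) did not show the higher level. Nrp2, Sema3a, Plxna4 and Efnb2 were thus lower at E11.5 in both pairs, which have no array in common.

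Endothelial markers were lower at E11.5 as well, in 8 of 10 cases in the gate and 7 of 10 in the other cells. Their summed level went from 3.11 to 1.76 in the gate and from 3.01 to 1.77 in the other cells, and Cdh5, Tek, Tie1 and Sox17 were not well above background in either E11.5 population. Stromal markers were lower in the gate in 6 of 9 cases (median -2.16). In the other cells all 8 endoderm markers (median -4.55) and 6 of 8 somite markers (median -2.30) were lower, and 4 of 9 stromal markers were higher. Dissection also differed, from caudal embryo to metanephric mesenchyme. Whether these changes in cell types account for the lower Nrp2, Sema3a, Plxna4 and Efnb2 was not tested.

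A wider list of 22 guidance ligands and receptors outside the set had 3 higher and 2 lower members of 22 measured across the gate at E9.5 (median 0.00) and 3 higher and 5 lower of 21 at E11.5 (median -0.53). The shares over all genes were 5.14% higher and 9.37% lower at E9.5, and 10.5% and 9.4% at E11.5. Flrt1, which encodes a transmembrane protein that binds Unc5 receptors and latrophilins, was higher in the gate at both stages (2.43 and 1.27) and higher at E11.5 than at E9.5 in gated and other cells (2.80 and 3.96). Sema4g was also higher in the gate at both stages (1.39 and 1.42). Flrt2 and Flrt3 were lower in the E11.5 gate, by -2.94 and -1.61. The list had 3 higher and 1 lower of 19 between the E8.5 populations, 1 and 3 of 22 in each comparison with E9.5 GFP-negative cells, 3 and 5 of 20 between the gates, and 5 and 5 of 22 between the other cells of the 2 stages. For these comparisons the shares of all genes are given above with the members.

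Of 34 intracellular effectors of guidance receptors, 2 were higher and 2 lower across the E9.5 gate (34 measured) and 1 was higher and 3 lower across the E11.5 gate (32 measured). Over all genes 5.14% were higher and 9.37% lower at E9.5, and 10.5% and 9.4% at E11.5. The effector counts across the gate thus lay near or below the background. Of the 2 probes of Arhgef15, counted in this list, 1 holds the GT repeat. The level used for Arhgef15 lay between 7.68 and 7.93 on every array. Srgap1, which acts downstream of Robo receptors, was higher in the gate at both stages (1.89 and 1.08). Of its family, Srgap2 gave -0.30 and -0.09, and Srgap3 gave -0.70 and -1.54. Dpysl3, a collapsin response mediator of semaphorin signalling, was lower at both stages (-2.68 and -1.37). Counts were 6 and 0 of 34 at E8.5, 4 and 5 of 33 when the E9.5 gate was set against GFP-negative cells, 6 and 3 of 34 when the other cells were, 2 and 2 of 32 between gates, and 4 and 3 of 34 between the other cells. Shares of all genes in these comparisons are given above with the members. The medians of this list lay between -0.20 and 0.22.

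Genes that place the ureteric bud, among which Slit2 and Robo2 act, were measured beside the set. Of 12, 7 were higher and 1 lower in the gate at E9.5 (median 1.31), and 6 were higher and 3 lower of 11 measured at E11.5 (median 1.06), where 5.14% and 10.5% of all genes were higher. The list shares Gdnf, Pax2, Sall1 and Eya1 with the nephron progenitor markers, of which 8 of 10 were higher in the gate at each stage. Those 10 include Itga8, which the gate selects for, and Osr1, the locus that carries GFP. Cited1, also among the 10, was lower in the E9.5 gate (3.18 against 4.45 in the other cells). Gdnf, the mesenchymal signal that draws out the bud, was at -0.59 in the E9.5 gate against -3.85 in the other cells. It was at 0.01 against -2.28 at E11.5 and was not well above background in the GFP-negative cells of E8.5 and E9.5. Counts were 4 and 0 of 10 at E8.5, 7 and 1 of 12 when the E9.5 gate was set against GFP-negative cells, 2 and 0 of 12 when the other cells were, 0 and 4 of 12 between gates, and 3 and 3 of 12 between the other cells. The all-gene shares of these comparisons are given above with the members. The sole probe of Eya1, counted in this list and among the nephron progenitor markers, also holds the GT repeat.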

How the data were processed

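Total RNA was extracted from sorted cells with a column kit, and 10 ng was amplified with the WT-Ovation Pico system and labelled with Cy3, per the labels' protocols. The submitters' processing notes name Agilent Feature Extraction 10.7.3.1 for reading the signal intensity. Per the file headers, the deposited intensity is the background-subtracted processed signal on a linear scale, with no scaling between arrays, and flags mark spots well above background, saturated or uneven. The series' deposited value table holds the same signal, with 62976 of 62976 values equal on every array and column medians from 30.6 to 51.3.

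Spots flagged as outliers were left out (127 to 160 of 59305 per array, none of a member), signals were divided by the 75th percentile of each array, log2 was taken, and the spots of a probe were averaged. Python 3.11.15, numpy 2.4.6 and pandas 2.3.3 were used, and limma 3.58.1 in R 4.3.3 for normexp. For each gene the probe of highest mean level was used. A probe without a gene symbol (20323 of 55681) stayed outside the named genes. A probe was well above background where at least 0.5 of its spots were. In naming members as higher or lower, one whose other probe was past 1 log2 unit in the reverse direction is pointed out. The number of arrays limits the precision, and no test was run, since each comparison sets 1 array against 1. The differences were checked on simulated data with known changes.

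Some symbols of the marker and pathway lists were matched by their older array names (Tcfap2a, Tcfap2c and 2610109H07Rik). The members and lists were chosen with earlier results of these data known. Alternatives were quantile normalization, no scaling, normexp with offset 0, detection on both arrays, no filter, the mean of all probes of a gene, and leaving out probes with 8 GT repeats, the last chosen after the levels were seen. Promoter sequences are those of RefSeq, GRCm38.p6.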

Additional observations from a re-analysis of the deposited data

Results flagged for a closer look

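Sema3c differed between the 2 stages in the direction of its gate difference. Gated minus other GFP-positive cells gave 1.96 log2 units at E9.5 and -1.37 at E11.5, opposite sides of 0 in the single array of each population. The difference between the stages was not tested. The E9.5 pair lies on different slides and the E11.5 pair on the same slide.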

How the results depend on the processing

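Of 107 member differences past 2-fold, all kept their direction under quantile normalization, no scaling, normexp, no filter and without GT repeat probes, and 103, 103, 93, 107 and 107 of them stayed past 2-fold. Asking for detection on both arrays left 96, and all 96 kept direction and size class. With the mean of all probes 105 kept their direction and 90 stayed past 2-fold. The 2 that turned were Ntn1 at E8.5 (0.24) and Sema3g between the gates (-1.42). Counts moved by over 1.5 times in 2 places. Members lower in E8.5 GFP-positive cells went from 2 to 1 without scaling, 4 with no filter and 0 with the mean of all probes, and members lower in E9.5 other GFP-positive than in GFP-negative cells went from 5 to 8 without scaling. The cause was not tested. The other counts stayed within 1.5 times.

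With 1 array per population, leaving out a replicate and fitting the slide as a block were not run. No paired analysis was possible because replicate numbers are only names and no result comes from a test. A fit of stage plus gate over the 4 gated and other GFP-positive arrays, with the stages as replicates, was not run. Epha8, Sema7a, Sema3e, Sema4a and Slit1 were well above background on the fewest arrays, which limits what can be said of them.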
